A study of Homo sapiens with 4 samples.

Results

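Divergent lncRNA genes start beside the promoter of a protein-coding gene and are transcribed away from it on the opposite strand. Here they were taken as the lncRNA genes whose 5′ end lay at most 1000 bp from the 5′ end of a protein-coding gene on the other strand, with no overlap between both genes and with at least 40 counts over the 4 libraries. Of 16657 lncRNA genes among 60708 genes listed, 1165 met the rule on position, and 865 of these, 5.19% of all lncRNA genes, also reached the count minimum and are described below together with the 865 protein-coding genes they pair with. The SNHG, MIR host and HOX symbols, 9 genes, were left out by the rule. Since the level itself chose the genes, that they are transcribed in these cells is not a result.

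Most human promoters load RNA polymerase II (Pol II) in both directions. The polymerase that faces the gene elongates, while the one that faces away usually makes a short, unstable RNA that is ended early by Integrator or by cleavage at promoter-proximal poly(A) signals and then degraded by the nuclear exosome with its adaptors NEXT and PAXT. U1 snRNP, which binds 5′ splice sites, protects transcripts from early cleavage, and antisense RNAs of promoters hold few such sites. Some upstream antisense transcripts run on far enough, or are stable enough, to be annotated as lncRNA genes, and many carry the suffix -DT, for divergent transcript, after the symbol of their neighbour. The C-terminal domain (CTD) of RPB1, the largest subunit of Pol II, is a run of heptad repeats whose phosphorylated residues recruit elongation, termination and RNA processing factors, and Thr4 is the residue exchanged here.

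The data were 4 TT-seq libraries from HEK293 cells, an embryonic kidney line, whose endogenous RPB1 carried a degron in both conditions. Cells were transiently transfected with plasmids for RPB1 with a CTD of 52 repeats, either wild type (52X WT, 2 libraries) or with Thr4 of every repeat changed to alanine (52X T4A, 2 libraries). Auxin, which triggers loss of the degron-tagged protein, was given to all cells 48 h after transfection for 48 h, and RNA was labeled with 4-thiouridine for 20 min, so that reads come mostly from newly made RNA. Cells that were not transfected would lack RPB1 in both conditions, and the labels do not name clones or separate cultures, so p-values measure only the spread between these libraries, which may be technical.

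POLR2A, which encodes RPB1, was counted 377312 and 384353 times in WT and 251502 and 279478 times in T4A. These counts include RNA from the plasmid and do not tell the CTD variants apart. Library totals ran from 33188536 to 45605027 counts. Of the HEK293 markers, EYA1, VIM and NEFL had at least 41.6 normalised CPM (counts scaled to the effective library size) in every library, PAX2 and LHX1 had 1.81 to 3.64, and NEFM and INA were at or below 0.153. Of the markers of other cell types, INS was listed at 0 in all 4 libraries, ALB had at most 1.1, and PTPRC, CD3E, HBB, MYH7, COL3A1 and CDH5 had at most 0.894 normalised CPM.

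The promoters that the pairs share were read from RefSeq (GRCh38.p14), 250 bases before to 50 after the start of the protein-coding gene, on that gene's strand. A total of 674 partners were matched by symbol with a start within 1000 bp of the listed 5′ end. Their median GC content was 67.7%, against 62.7% for 14602 other protein-coding promoters, and the median ratio of observed to expected CpG was 0.895 against 0.759. A ratio above 0.6, the usual mark of a CpG island, was found in 95.7% of the partner promoters and in 65.3% of the others. Short motifs were searched on both strands and may overlap. The TATA box TATAAA was in 3.41% of the partner promoters, 9.85% of the other protein-coding promoters and 12% of all promoters in the table. The GC box GGGCGG was in 77%, 58.5% and 44.6%, and the ETS core CCGGAA in 36.1%, 22.5% and 17.6%, in the same order. The NRF1 core GCGCATGC was in 7.57%, 4.11% and 3.27%, the YY1 core ATGGCG in 19%, 14.3% and 11%, and the CRE TGACGTCA in 3.56%, 2.59% and 1.98%. The CCAAT box was about as frequent in the partner promoters (37.4%) as in the others (36.6%). The 5′ splice site cores GGTAAG and GTAAGT were in 5.93% and 3.12% of the partner promoters, and in 6.91% and 4.51% of the others. Most of the motifs that were more frequent in the partner promoters are GC-rich, and the part of base composition in this was not tested. The partner promoters were chosen through a count minimum on their lncRNA in these cells, and the other promoters were not. The part of this choice in the contrasts of GC, CpG and motifs was not tested. A match is a description of the letters and not of a bound site.

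The promoters of 6 pairs are printed to show how close the 5′ ends of a pair can lie. Capitals run from the 5′ end of the lncRNA gene to the 5′ end of the protein-coding gene, both included, so that the lncRNA is read leftward from the first capital and the coding gene rightward from the last. CKMT2-AS1 and NIPBL-DT are among the 8 lncRNA genes with the most counts. Among lncRNA genes with a symbol, NUDT19-DT, LRP4-AS1 and TMEM252-DT had some of the lowest p-values of those higher in T4A. BDNF-AS had one of the lowest of those lower in T4A.
CKMT2-AS1 and ZCCHC9 (chr5:81301337-81301636, plus strand): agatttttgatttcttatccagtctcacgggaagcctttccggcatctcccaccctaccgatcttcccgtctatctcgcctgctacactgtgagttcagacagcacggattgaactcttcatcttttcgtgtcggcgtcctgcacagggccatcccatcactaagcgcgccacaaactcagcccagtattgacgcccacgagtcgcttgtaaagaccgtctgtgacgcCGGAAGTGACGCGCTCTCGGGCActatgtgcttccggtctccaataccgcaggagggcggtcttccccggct
NIPBL-DT and NIPBL (chr5:36876519-36876818, plus strand): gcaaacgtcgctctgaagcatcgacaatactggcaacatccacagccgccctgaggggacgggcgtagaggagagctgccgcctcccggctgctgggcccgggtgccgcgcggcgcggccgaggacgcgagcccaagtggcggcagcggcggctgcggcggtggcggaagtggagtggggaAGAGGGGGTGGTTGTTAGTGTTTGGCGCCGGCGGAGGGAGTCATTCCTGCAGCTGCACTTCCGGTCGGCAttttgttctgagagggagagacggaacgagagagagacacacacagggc
NUDT19-DT and NUDT19 (chr19:32691571-32691870, plus strand): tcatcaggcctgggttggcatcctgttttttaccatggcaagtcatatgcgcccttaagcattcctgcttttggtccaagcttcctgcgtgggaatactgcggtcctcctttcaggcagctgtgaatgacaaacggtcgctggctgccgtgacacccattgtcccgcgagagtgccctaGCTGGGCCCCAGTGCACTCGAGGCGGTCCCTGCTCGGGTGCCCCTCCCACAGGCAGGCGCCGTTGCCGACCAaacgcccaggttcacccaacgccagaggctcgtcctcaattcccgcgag
LRP4-AS1 and CKAP5 (chr11:46846231-46846530, minus strand): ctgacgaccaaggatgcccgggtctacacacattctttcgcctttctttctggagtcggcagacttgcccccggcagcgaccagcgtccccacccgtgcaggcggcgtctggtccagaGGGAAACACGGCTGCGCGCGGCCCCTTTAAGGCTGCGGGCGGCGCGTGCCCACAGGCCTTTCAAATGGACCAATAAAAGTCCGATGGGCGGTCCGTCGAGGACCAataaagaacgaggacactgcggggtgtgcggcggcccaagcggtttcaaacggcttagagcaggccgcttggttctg
TMEM252-DT and TMEM252 (chr9:68540834-68541133, minus strand): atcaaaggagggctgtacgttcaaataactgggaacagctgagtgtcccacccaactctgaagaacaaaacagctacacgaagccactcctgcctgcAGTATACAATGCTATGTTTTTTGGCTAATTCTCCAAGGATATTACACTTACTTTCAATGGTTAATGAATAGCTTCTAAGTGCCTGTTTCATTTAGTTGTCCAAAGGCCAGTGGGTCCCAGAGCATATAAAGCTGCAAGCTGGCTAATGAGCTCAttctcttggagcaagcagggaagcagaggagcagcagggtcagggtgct
BDNF-AS and LIN7C (chr11:27506720-27507019, minus strand): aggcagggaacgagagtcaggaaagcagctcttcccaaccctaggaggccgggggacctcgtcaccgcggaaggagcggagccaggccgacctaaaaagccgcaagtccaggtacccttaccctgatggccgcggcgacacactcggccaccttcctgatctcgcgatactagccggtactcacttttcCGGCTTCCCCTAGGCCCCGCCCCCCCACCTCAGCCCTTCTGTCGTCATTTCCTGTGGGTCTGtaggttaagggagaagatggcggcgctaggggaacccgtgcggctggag

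The 5′ ends of CKMT2-AS1 and ZCCHC9 lay 22 bp apart, those of TMEM252-DT and TMEM252 153 bp. The TMEM252 promoter differed from the other printed ones in its composition, with 46% GC, 2 CpG dinucleotides and a TATAAA, against 56.3% to 67% GC and 19 to 30 CpG dinucleotides in the other printed promoters. Over all 865 pairs the distance between the 5′ ends had a median of 152 bp, with quartiles of 90 and 299 bp and a range of 1 to 984 bp, and 649 pairs (75%) lay within 300 bp. The lncRNA genes spanned a median of 8750 bp, from 187 to 1117567 bp, and their partners a median of 34633 bp. They lay on 23 chromosomes, 443 on the plus and 422 on the minus strand. By name, 361 ended in -DT, 356 of these after the symbol of the partner found here, 101 ended in -AS with or without a number, 24 were LINC genes, 33 had another symbol and 346 had an Ensembl identifier only. Only 8 held a miRNA, snoRNA or scaRNA gene on their own strand. Another listed gene overlapped 420 of them on either strand and 148 on the same strand, where reads over both genes can be lost to each.

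The divergent lncRNA genes had a median of 424 counts over the 4 libraries (quartiles 139 and 1190, highest 24496), and their partners a median of 7941. At the count minimum, UBE2E2-DT, SNTG2-AS1 and ENSG00000257878 were just inside, with 2 to 17 counts in each library, and SH3TC2-DT, VPS13C-DT and GAS6-DT were just outside, with 2 to 17 counts in each library. Together the lncRNA genes held 0.648% and 0.642% of the counts of the WT libraries and 0.643% and 0.675% of those of the T4A libraries.

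Per kb of gene span, nascent RNA of the lncRNA genes was mostly well below that of their partners. Over the 804 pairs whose partner had at least 40 counts, the median log2 ratio of lncRNA to partner was −1.93 in WT, that is, the partner was 3.82-fold higher, with quartiles of −3.56 and −0.17. The lncRNA was above its partner in 180 pairs (22.4%) and at least 10-fold below it in 225. Per library, the lncRNA was above its partner in 23% and 22.5% of pairs in WT and in 22.4% and 24.5% in T4A, and the median log2 ratio in the T4A mean was −1.75. In the 446 pairs in which neither gene overlapped another gene of its strand the median log2 ratio was −1.90, and the lncRNA was above its partner in 20%. Restricted to lncRNA genes that overlap no other gene on either strand, whose median span was only 2914 bp, the partner was 2.05-fold higher. The partners include 35 genes listed at 0, 34 of which overlap another gene of their strand, such as ZNF8 and the mitochondrial ribosomal protein gene MRPL12, and no level ratio was taken for these.

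The ratio followed the length over which the lncRNA was annotated. For lncRNA genes of up to 1 kb the median log2 ratio to the partner was −0.064 and 48.1% were above it, for 1 to 3 kb it was −0.25, for 3 to 10 kb −1.55, for 10 to 30 kb −2.66, for 30 to 100 kb −3.15, and over 100 kb −4.39 with 5.56% above the partner. Without same-strand overlap of either gene, the median was −0.49 for 160 lncRNA genes of up to 3 kb and −3.72 for 85 of over 30 kb. Across genes, Spearman's rho between span and level per kb of the lncRNA was −0.677, and span is also the divisor of that level. The rho between the levels of lncRNA and partner, each divided by its own span, was 0.325 (804 pairs, which share libraries). Genes are not independent replicates. The distance between the 5′ ends showed no such order, with medians of −2.05 (up to 50 bp), −2.21, −1.79, −1.59 and −2.10 (400 to 1000 bp). The level per kb depends on where the annotated gene ends. The same count minimum also applied at every span, so a short lncRNA gene could enter only at a higher level per kb than a long one. How far this rule or the division by span set the order of the medians by span, or the rho between span and level per kb, was not tested. With exonic length in place of span the median log2 ratio was −2.37 and 15.5% of lncRNA genes were above their partner.

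**Figure D1:**
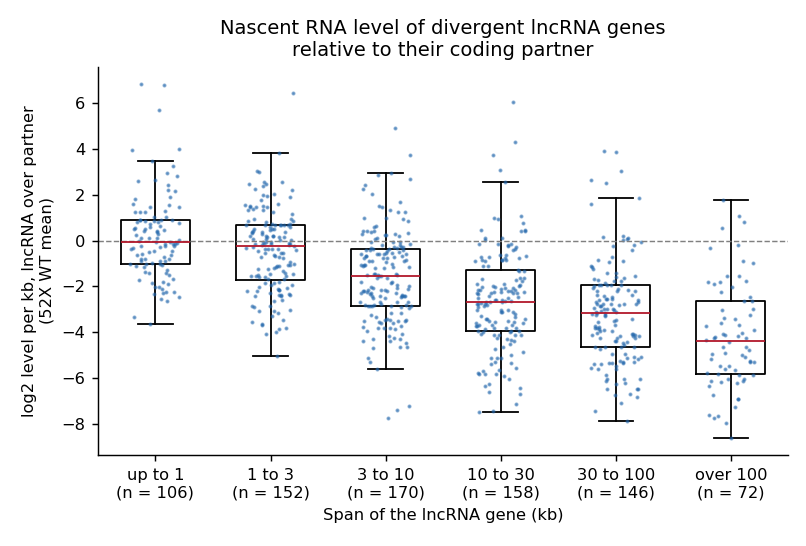
Log2 ratio of the nascent RNA level per kb of lncRNA to partner (y axis, mean of the 52X WT libraries) against the span class of the lncRNA gene in kb (x axis); each point is 1 pair, boxes give median and quartiles, whiskers reach 1.5 times the interquartile range. Medians go from −0.064 at up to 1 kb to −4.39 at over 100 kb.

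The 8 lncRNA genes with the most counts show this range. CKMT2-AS1 (chr5:81201341-81301565, minus strand) pairs with ZCCHC9, a zinc knuckle protein gene, and was at 0.788 of its partner's level per kb. NIPBL-DT (chr5:36864425-36876700, minus strand), opposite the cohesin loader NIPBL, was 1.93-fold above it. RAB30-DT (chr11:83072052-83107789, plus strand) was 14.7-fold above RAB30, a Golgi GTPase gene, although both genes overlap another gene of their strand, so reads may be missing from either. NUTM2B-AS1 was 1.47-fold above NUTM2E, a gene of a family with near-identical copies whose counts are uncertain. SLC12A2-DT, SMC5-DT and ZNF337-AS1 were 3.52-, 3.15- and 2.63-fold below SLC12A2, a chloride cotransporter gene, SMC5, a chromosome maintenance gene, and NANP, a sialic acid phosphatase gene. COPB2-DT, annotated over 392939 bp, was 16.3-fold below COPB2, a coatomer subunit gene.

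Before the conditions are compared, the T4A libraries must be set against each other, because they differed from each other by gene length. Among divergent lncRNA genes with at least 200 counts, the median log2 ratio of T4A replicate 1 to replicate 2 was −0.18 for spans of up to 1 kb, −0.17 for 1 to 3 kb, −0.068 for 3 to 10 kb and 0.085 for over 100 kb, while that of the WT replicates stayed between −0.041 and 0.038. In 18 of these 571 genes the log2 ratio of T4A replicate 1 to replicate 2 was below −1, 14 of them with a span of up to 3 kb, and in 2 it was above 1. Between the WT replicates 0 genes were below −1 and 2 were above 1. Against WT, the median log2 fold change of these lncRNA genes was nearly level over the span classes with T4A replicate 1 alone (0.006, −0.039, −0.001, −0.010, −0.008 and −0.008, from the shortest to the longest), and went from 0.25 and 0.14 to −0.073 with T4A replicate 2 alone. The median ratio of the T4A replicates was also lower where the shared promoter had at least 70% GC (−0.086, 165 genes) than at 60 to 70% (0.029, 209 genes) or below 60% (0.028, 83 genes). The partners had a ratio of −0.74 for 12 genes of up to 3 kb and 0.12 for those over 100 kb, and their median log2 fold change in these classes was −0.56 and −0.098 with T4A replicate 1 alone and 0.076 and −0.19 with T4A replicate 2 alone. CEBPA-DT (chr19:33302857-33305054), opposite the myeloid and adipocyte factor CEBPA, had 41 and 37 counts in WT and 8 and 27 in T4A, and ENSG00000262049, opposite MRPL12, had 435 and 522 in WT and 110 and 346 in T4A. Both log2 fold changes, −0.88 and −0.79, were −0.26 and −0.19 without T4A replicate 1.

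**Figure D2:**
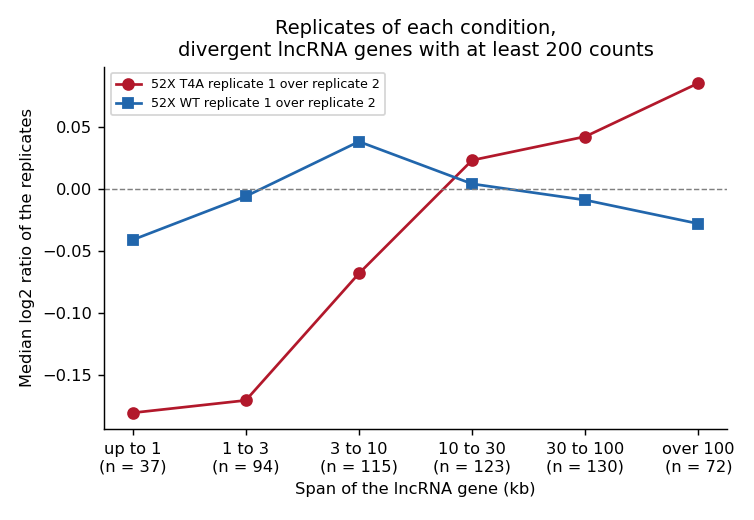
Median log2 ratio of replicate 1 to replicate 2 (y axis) for the T4A and the WT libraries, by span class of the lncRNA gene in kb (x axis), for divergent lncRNA genes with at least 200 counts. The T4A ratio goes from −0.18 for the shortest genes to 0.085 for the longest, and the WT ratio stays within −0.041 and 0.038.

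No divergent lncRNA gene passed the test between 52X T4A and 52X WT. Of 861 tested (edgeR quasi-likelihood test, adjusted p below 0.05 and a fold above 1.5), 0 were called, and the lowest adjusted p was 0.148. Over all 23321 genes tested 1 was called, or 0.00429%. At an unadjusted p below 0.05, 44 (5.11%) were higher and 35 (4.07%) lower in T4A, against 7.45% and 8.02% of all genes tested, so the lncRNA genes held fewer such genes than the background in either direction. In 234 (27.2%) both T4A libraries lay above both WT libraries, and in 186 (21.6%) below, against 24.8% and 24.7% of all genes. DESeq2 called 2 of them, MCM3AP-AS1 and PRMT5-DT, and 99 of all 23321 genes tested. Fits without 1 T4A library leave the other alone and assume that it varies like the WT libraries. Their calls are given below, with those over all genes.

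The median log2 fold change of the divergent lncRNA genes was 0.042 (quartiles −0.20 and 0.27), and 482 of 861 (56%) were above 0. Per library, the median deviation from the WT mean was 0.002 and −0.002 in WT and 0.012 and 0.073 in T4A, so T4A replicate 1 lay closer to the WT libraries than to T4A replicate 2. The median log2 fold change was −0.010 without T4A replicate 2 and 0.070 without T4A replicate 1. The median of all genes tested was −0.001. In bulk samples, fewer cells making an RNA and less RNA made per cell cannot be told apart.

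The partners were on the lower side. Their median log2 fold change was −0.075 (803 tested), with per-library medians of −0.025 and 0.025 in WT and −0.060 and −0.062 in T4A. edgeR called 0 and DESeq2 called 3 of them, against 1 and 99 of all genes tested. At an unadjusted p below 0.05, 41 (5.11%) were higher and 107 (13.3%) lower. All protein-coding genes had a median of −0.043, with 6.58% higher and 10.5% lower. By read density, the median of protein-coding genes was −0.15 at 20 to 100 counts per kb of span and −0.093 at 100 to 500. It was above 0 in the other density classes. The part of read density in the partners' median was not tested. Within the 800 pairs with both genes tested, the lncRNA's log2 fold change was above that of its partner in 489 (61.1%), with a median difference of 0.10 (quartiles −0.17 and 0.35). By library, the median log2 ratio of lncRNA to partner, set against the WT mean, was 0.026 and −0.026 in WT and 0.072 and 0.14 in T4A, so both T4A libraries lay above both WT libraries. The difference was small where counts were high, at 0.028 in the 217 pairs with at least 1000 counts for each gene, and by counts of the lncRNA it went from 0.18 at 40 to 100 counts to 0.002 above 3000.

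Within single pairs, the ratio of lncRNA to partner did not overlap between conditions in 383 of 800 pairs (47.9%), 249 of them higher and 134 lower in T4A. In 714 divergent pairs of protein-coding genes within the same distance it did not overlap in 53.5%. The fold changes of both genes of a pair were weakly related, with Pearson's r of 0.169 and Spearman's rho of 0.135 over 800 pairs, and r of 0.168 over the 217 pairs with high counts. For the pairs of protein-coding genes r was 0.218. These are correlations across genes that share all 4 libraries and are given as a description. Over the same 800 pairs, r between the replicate differences of both genes was 0.184 in T4A and −0.0624 in WT. A relation of this size was thus also present between the T4A libraries alone. The median absolute difference within pairs was 0.28 between conditions, 0.28 between the T4A replicates and 0.21 between the WT replicates. The lncRNA was higher and the partner lower in 273 pairs, both were lower in 246, both higher in 170, and the lncRNA lower and the partner higher in 111. In 21 of the 800 pairs both genes had an unadjusted p below 0.05, 14 of them in the same direction. Taken singly, 5.11% of the lncRNA genes were higher and 4.07% lower at that p. Of the partners 5.11% were higher and 13.3% lower. Pairs of protein-coding genes were not counted in this way.

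**Figure D3:**
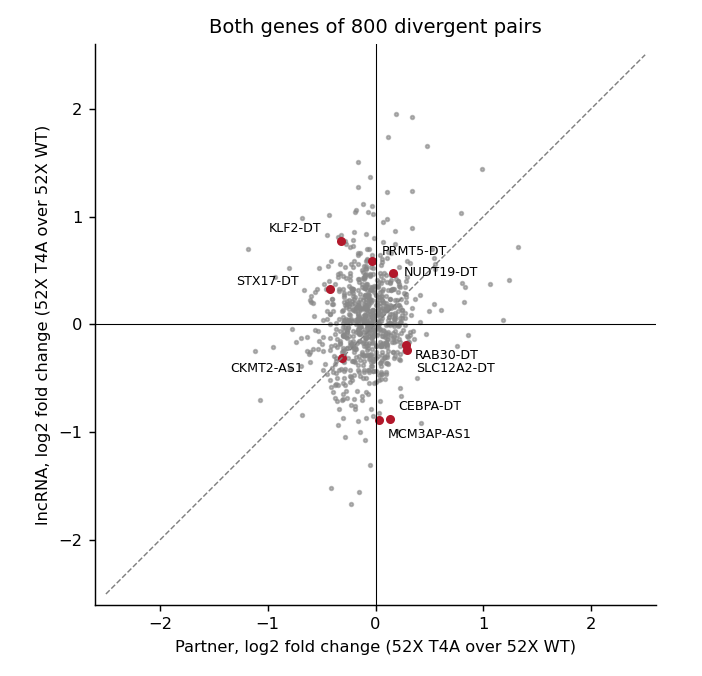
Log2 fold change (52X T4A over 52X WT) of the lncRNA (y axis) against that of its protein-coding partner (x axis) for the 800 pairs with both genes tested; the dashed line marks equal change, and red points are named pairs. The cloud is wider along the lncRNA axis and shows little slope (r 0.169).

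Where the lncRNA genes differed from other lncRNA genes, read density differed too. The other 5538 lncRNA genes tested had a median log2 fold change of 0.18, with 10.4% higher and 3.27% lower at an unadjusted p below 0.05. They also had a median of 11.6 counts per kb of span over the 4 libraries, against 55.6 for the divergent lncRNA genes. Below 5 counts per kb the medians were 0.31 for 77 divergent lncRNA genes, 0.59 for 2022 other lncRNA genes and 0.48 for 2024 protein-coding genes. In the same order they were 0.082, 0.14 and 0.059 at 5 to 20 counts per kb, −0.022, −0.026 and −0.15 at 20 to 100, 0.021, −0.036 and −0.093 at 100 to 500, and 0.071, 0.15 and 0.057 at 500 or more. The medians of all 3 classes were thus above 0 at low density and again at the highest density. The part of read density in the difference between the lncRNA classes was not tested.

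**Figure D4:**
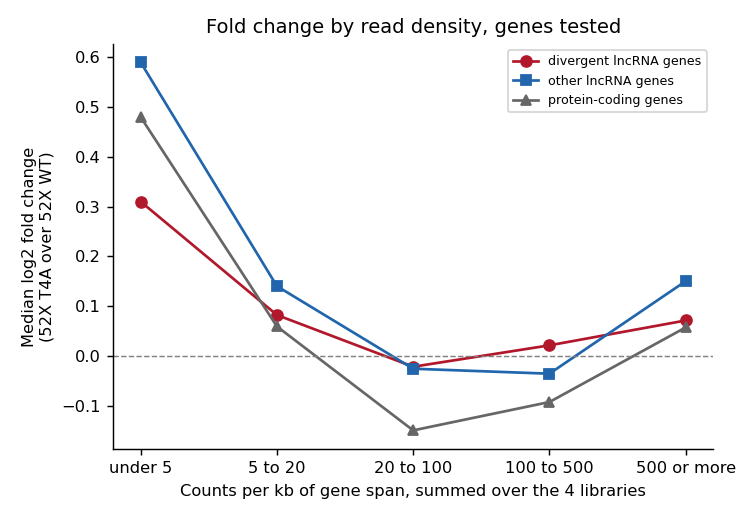
Median log2 fold change (52X T4A over 52X WT, y axis) of divergent lncRNA genes, other lncRNA genes and protein-coding genes, by counts per kb of span summed over the 4 libraries (x axis). All 3 classes are highest below 5 counts per kb, at 0.31, 0.59 and 0.48.

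Among the lncRNA genes that were lower in T4A, MCM3AP-AS1 (chr21:46229196-46259390, plus strand) had the lowest p-value. It had 19.9 and 21.9 normalised CPM in WT and 11.1 and 11.5 in T4A, a log2 fold change of −0.89 ± 0.13 (SE; edgeR adjusted p = 0.148). The libraries did not overlap, which was required of the genes ranked by p-value here. Its partner LSS, which encodes lanosterol synthase of cholesterol synthesis and starts 372 bp away, had 28 and 25.9 in WT and 25.1 and 29.9 in T4A, with overlapping libraries and a log2 fold change of 0.031. The lncRNA and its partner were at nearly equal levels per kb in WT (ratio 1.04). MCM3AP-AS1 overlaps another listed gene of its own strand. It was called by DESeq2, without a filter on low counts, with the replicate block and without either T4A library.

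BDNF-AS (chr11:27506830-27698231, plus strand) runs from the promoter of LIN7C, a cell polarity gene, across the gene of the neurotrophin BDNF on the other strand. It had 48.5 and 45.3 normalised CPM in WT and 36.3 and 33.8 in T4A (log2 fold change −0.42 ± 0.10, edgeR adjusted p = 0.193), while LIN7C had 52.5 and 62.1 in WT and 55.3 and 55 in T4A. GMDS-DT had 29.7 and 30.1 in WT and 22.6 and 22 in T4A, and GMDS, a gene of GDP-fucose synthesis, 366 and 374 in WT and 349 and 331 in T4A. ZRANB2-DT had 31.6 and 34.3 in WT and 25.6 and 22.4 in T4A, and ZRANB2, a splicing regulator gene, 164 and 185 in WT and 193 and 183 in T4A. In these 3 pairs the T4A libraries of the lncRNA lay below both WT libraries, as their choice required. Those of the partner did so for GMDS alone.

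In other pairs both genes were lower in T4A. CKMT2-AS1 had 174 and 180 normalised CPM in WT and 148 and 138 in T4A (log2 fold change −0.31 ± 0.09, edgeR adjusted p = 0.228), and ZCCHC9, 22 bp away, had 25.1 and 27.4 in WT and 21.9 and 20.5 in T4A with the same log2 fold change of −0.31. TMCC1-DT had 16.2 and 18.8 in WT and 12.7 and 13 in T4A, and its partner TMCC1, an endoplasmic reticulum membrane protein gene, 187 and 196 in WT and 154 and 143 in T4A. APPBP2-DT and LINC01134 had log2 fold changes of −0.50 and −0.54, and their partners APPBP2 and C1orf174 of −0.28 and −0.30. In all 4 pairs the T4A libraries of both genes were below the WT libraries, which the choice required of the lncRNA but not of the partner. None of these differences passed the adjusted threshold.

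Among lncRNA genes higher in T4A that had a symbol and met the same conditions, TMEM252-DT (chr9:68541036-68644442, plus strand) had the lowest p-value, at low counts. It had 37 and 56 counts in WT and 98 and 79 in T4A (log2 fold change 1.23 ± 0.31, edgeR adjusted p = 0.204), and TMEM252 itself was nearly unread, with 2 and 0 counts in WT and 2 and 0 in T4A. The lncRNA spans 103407 bp, overlaps another gene of its strand and had 0.0107 normalised CPM per kb in WT, among the genes of low density described above. FLJ40194, opposite PHOSPHO1, a phosphatase gene of bone mineralisation, was of the same kind, with 67 and 104 counts in WT and 136 and 122 in T4A. KLF2-DT, opposite the Krüppel-like factor KLF2, had 82 and 86 counts in WT and 137 and 98 in T4A, and KLF2 had 92 and 114 in WT and 42 and 94 in T4A, the lowest again in T4A replicate 1.

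NUDT19-DT, PRMT5-DT, LRP4-AS1 and DNAJC9-AS1 had more reads. NUDT19-DT (chr19:32687089-32691750, minus strand), which overlaps no other gene, had 20.8 and 20.9 normalised CPM in WT and 31.5 and 27 in T4A (log2 fold change 0.48 ± 0.12, edgeR adjusted p = 0.208), and NUDT19, a hydrolase of coenzyme A, 193 and 186 in WT and 213 and 212 in T4A. PRMT5-DT (chr14:22929607-22956374, plus strand) had 11.4 and 10.1 in WT and 18.2 and 14.3 in T4A (log2 fold change 0.59 ± 0.16, edgeR adjusted p = 0.223), and PRMT5, an arginine methyltransferase gene, 21.4 and 21.5 in WT and 19.5 and 22.6 in T4A. LRP4-AS1 had 6.18 and 5.63 in WT and 9.29 and 8.71 in T4A, and CKAP5, a microtubule polymerase gene, 369 and 366 in WT and 369 and 326 in T4A. All 4 lncRNA genes had both T4A libraries above both WT libraries, as their choice required, and of the partners PRMT5 and CKAP5 overlapped. DNAJC9-AS1 had 9.45 and 8.71 in WT and 12.6 and 13.7 in T4A, and the histone chaperone gene DNAJC9 87.1 and 80.5 in WT and 103 and 92.6 in T4A.

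**Figure D5:**
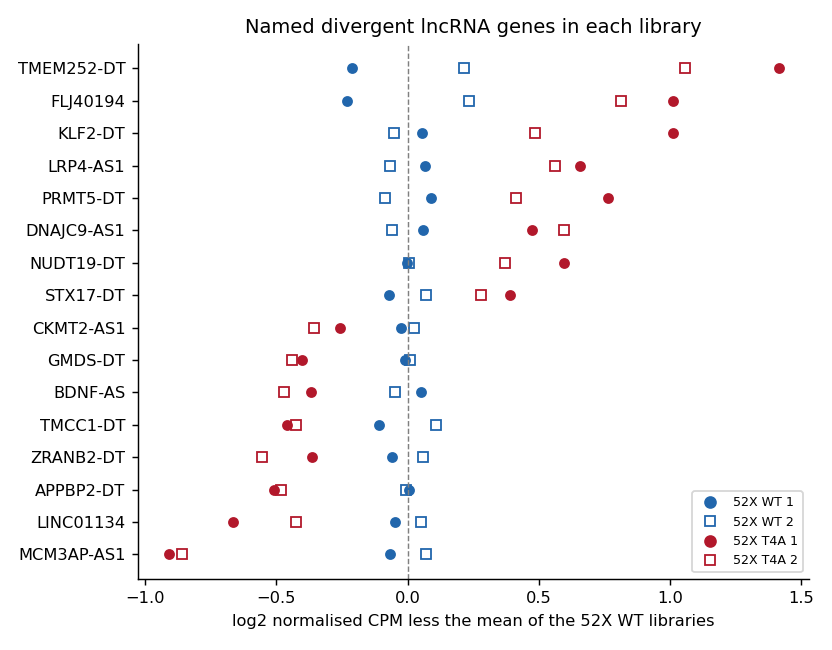
Log2 normalised CPM less the mean of both 52X WT libraries (x axis) for the 16 divergent lncRNA genes with a symbol and the lowest unadjusted p in each direction (y axis); each point is 1 library. In every row the red and blue points do not overlap, which the choice of these genes required.

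In some pairs the lncRNA and its partner differed in opposite directions. STX17-DT had 21.8 and 24 normalised CPM in WT and 30 and 27.8 in T4A, while STX17, an autophagosome SNARE gene 49 bp away, had 54.3 and 57.9 in WT and 43.3 and 40.9 in T4A, so that neither gene overlapped and the log2 fold changes differed by 0.75. ENSG00000286577 had 4.34 and 4.17 in WT and 6.97 and 5.44 in T4A, against 247 and 277 in WT and 202 and 185 in T4A for FAM172A, 21 bp away, a difference of 0.98. STX17-DT spans 509582 bp and overlaps another gene of its strand. Per kb, STX17-DT and ENSG00000286577 had only 0.045 and 0.0662 normalised CPM in WT. In the opposite sense, SLC12A2-DT had 124 and 132 in WT and 109 and 108 in T4A, and SLC12A2 303 and 360 in WT and 429 and 378 in T4A. RAB30-DT had 93.9 and 100 in WT and 87.2 and 83.2 in T4A, and RAB30 17.8 and 18.7 in WT and 23 and 21.3 in T4A. NUTM2B-AS1 and NUTM2E had log2 fold changes of −0.25 and 0.30. Among pairs with a mean of at least 50 counts for both genes and ratios that did not overlap between conditions, those with the largest absolute difference were KLF2-DT, ENSG00000286577, ZDHHC12-DT, PPP4R1-AS1 and ENSG00000248240, with differences of 0.94 to 1.09, and MCM3AP-AS1 with −0.92. In ZDHHC12-DT the difference came with 34 counts of ZDHHC12 in T4A replicate 1, against 101 in replicate 2 and 117 and 142 in WT. Other high-count pairs had little difference, such as NIPBL-DT (78.4 and 93.7 in WT, 80.9 and 94.1 in T4A) with NIPBL, at log2 fold changes of 0.023 and −0.057.

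Beside CEBPA-DT and MCM3AP-AS1, NOP14-AS1 was the third gene of a list of lncRNAs known by name that was among the divergent lncRNA genes. It had 28.1 and 25.7 normalised CPM in WT and 22 and 26.2 in T4A, with overlapping libraries, and pairs here with MFSD10, whose 14 counts in T4A replicate 1 stood against 150, 108 and 115 in the other libraries.

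Grouped by what the partner is known for, 0 or 1 lncRNA gene of each group passed an unadjusted p of 0.05. Over all 861 lncRNA genes tested, 5.11% were higher and 4.07% lower at that p, against 7.45% and 8.02% of all genes. Counts of 0 or 1 in groups of this size are thus no result about the group. Of 33 lncRNA genes at zinc finger genes 20 were above 0 (median log2 fold change 0.11), 1 was higher at an unadjusted p below 0.05, and the partners' median was −0.073. The most read ones were ENSG00000226465 at ZNF337, with 43.4 and 48.5 normalised CPM in WT and 52.4 and 48.6 in T4A, and ZNF8-DT, with 26.5 and 30.4 in WT and 31.8 and 32.7 in T4A. The 15 at developmental transcription factor genes, such as ENSG00000230773 at FOXN2 and ENSG00000283959 at KLF10, had a median of −0.092, and 1 was lower at that p. The 14 at ribosome and translation factor genes, such as LINC02340 at RPL21 and ENSG00000246308 at EIF4G2, had a median of 0.047 while their partners had 0.17, and RPL21 counts are uncertain because ribosomal protein genes have many near-identical copies. The 10 at cell cycle and replication genes, such as MAD2L1-DT at the spindle checkpoint gene MAD2L1 and NEK2-DT at the centrosome kinase gene NEK2, had a median of 0.10. NEK2 itself had 30 and 34.5 in WT and 46.8 and 39.4 in T4A, and NEK2-DT 6.39 and 5.63 in WT and 5.75 and 6.48 in T4A. The 10 at Pol II elongation and CTD genes had a median of −0.11, and 1 was lower at that p. It was ENSG00000251314 at the elongation factor gene ELL2, with 17.4 and 18.8 in WT and 15.3 and 13.8 in T4A. ENSG00000251314 and ENSG00000287031, at the Mediator gene MED10, had the most counts of the group. The 4 at DNA repair genes, among them CRTC3-AS1 at the helicase gene BLM and ENSG00000286145 at ERCC3, had a median of 0.11, and the 3 at mitochondrial ribosome genes, among them MRPS30-DT, a median of −0.045.

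The genes of the machinery that ends or removes divergent transcripts, and those of U1 snRNP, which protects transcripts from early cleavage, were read in the same libraries. Of 70 genes in 5 lists 66 were tested and 0 were called by edgeR or DESeq2, while at an unadjusted p below 0.05 there were 4 higher and 9 lower in T4A. Over all genes tested 7.45% were higher and 8.02% lower at that p. Of all protein-coding genes tested 6.58% were higher and 10.5% lower, and 43.4% had a log2 fold change above 0. The part of read density in the direction of these lists was not tested. Of 15 Integrator genes, whose complex cleaves nascent RNA and releases paused Pol II, 13 were below 0 (median log2 fold change −0.24) and 6 were lower at an unadjusted p below 0.05. INTS14 had 65.3 and 67.2 normalised CPM in WT and 51.6 and 49.7 in T4A (log2 fold change −0.39 ± 0.09, edgeR adjusted p = 0.187), and INTS3, INTS5, INTS8, INTS9 and INTS10 had log2 fold changes of −0.24 to −0.45. Of 9 U1 snRNP genes tested, 9 were above 0 (median 0.17), and SNRPA, SNRPF and SNRPG were higher at that p, with 0.35, 0.28 and 0.21. SNRPF is itself the partner of a divergent lncRNA gene. Of 18 exosome, NEXT and PAXT genes 12 were above 0 (median 0.038) and 0 passed an unadjusted p of 0.05. Of 18 cleavage and polyadenylation genes 6 were above 0, with PCF11, which joins cleavage to termination, at 212 and 220 in WT and 278 and 274 in T4A (log2 fold change 0.35 ± 0.09, edgeR adjusted p = 0.209), and CPSF3 and CPSF4 at −0.30 and −0.26. ZC3H4, of the restrictor complex that limits noncoding transcription, had 134 and 119 in WT and 99.9 and 109 in T4A, and the 6 cap-binding and restrictor genes had a median of −0.001. None of these differences passed the adjusted threshold.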

How the data were processed

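The authors deposited raw counts per gene, listed with GRCh38 coordinates. Per the labels, reads were handled with cutadapt 4.6, STAR 2.7.11b, Picard, FastQC and deepTools 3.5.6. The gene annotation and the strand setting of the counting are not given in the sources used here, and the listed length is the whole gene span, introns included. Gene types, names and exonic lengths came from GENCODE by stable identifier (58700 of 60708 genes matched). Members and lists were chosen with earlier results of these data known.

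T4A was tested against WT on all genes with edgeR 4.0.16 (TMM, default filter on low counts, quasi-likelihood test, Benjamini-Hochberg adjustment) in R 4.3.3, which was tested on simulated data. SEs were derived from the F statistic. DESeq2 1.42.0, other filters and scalings, a length trend, the replicate block, each library left out, and other distances, count minimums and lengths were alternatives. Level ratios used normalised CPM per kb, and log2 ratios per library a pseudocount of 0.05 CPM. Named were the 8 members with the most counts, the 8 with the lowest p in each direction among those that had a symbol, 50 or more counts on average and no overlap between conditions, the 6 pairs with the largest difference, members known by name or 2 per partner list, and the partners of all these. A marker gene is not reported here.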

Additional observations from a re-analysis of the deposited data

How the results depend on the processing

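The median difference between lncRNA and partner was positive under every fit run. With library sizes in place of TMM the median log2 fold change was 0.092 for the lncRNA genes and −0.023 for the partners, and 22 lncRNA genes were lower at an unadjusted p below 0.05. DESeq2 called 2 lncRNA genes, 99 over all genes, and had 22 lncRNA genes higher at that p. No filter on low counts gave 1 call, 65 over all genes. Deviations of same-numbered libraries were nearly uncorrelated (0.00498), which does not settle whether these libraries were made as pairs. With the replicate block 3 lncRNA genes were called, 433 over all genes. With 1 library left out at a time, the calls ran from 0 to 59, the lncRNA genes higher at an unadjusted p below 0.05 from 10 to 79 and those lower from 8 to 97, the lncRNA median from −0.010 to 0.070 and the partner median from −0.10 to −0.057. The cause was not tested. Over all genes, calls were 0 to 2500, the highest without T4A replicate 2. Pairs within 300 bp had a median log2 level ratio of −1.9985 with 21.1% of lncRNA genes above their partner, and lncRNA genes with at least 200 counts had 25.3% above. Those that overlap no other gene had a median of −1.04, 30.2% above, and 19 higher and 11 lower at an unadjusted p below 0.05. A minimum of 20 counts per kb, chosen after seeing the data, left a median log2 fold change of 0.0099, 26 higher, a median level ratio of −1.05 and 29.5% above. Exonic length gave −2.37 and 15.5%.

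Some named genes changed sign. With library sizes, ZNF337-AS1 was at 0.039, PRMT5 at 0.025 and MRPS30 at 0.040. Without a filter, NIPBL-DT was at −0.0006 and MAD2L1-DT at −0.022, and without the length trend MAD2L1-DT was at −0.011. With 1 library left out, log2 fold changes ran as follows: ZNF337-AS1 −0.064 to 0.010, NIPBL-DT −0.11 to 0.14, MAD2L1-DT −0.031 to 0.0046, NEK2-DT −0.080 to 0.12, ENSG00000230773 −0.0079 to 0.068, ENSG00000283959 −0.27 to 0.023, ENSG00000286145 −0.0092 to 0.51, ENSG00000287031 −0.029 to 0.39, ENSG00000246308 −0.13 to 0.22, SNTG2-AS1 −2.27 to 0.45, PRMT5 −0.15 to 0.081, MFSD10 −2.91 to 0.098, MRPS30 −0.14 to 0.086, ELL2 −0.031 to 0.17, KLF2 −0.99 to 0.14, LIN7C −0.18 to 0.050, KLF10 −0.021 to 0.14, LSS −0.11 to 0.16, NIPBL −0.17 to 0.032, SMC5 −0.089 to 0.12, CEBPA −0.34 to 0.48. The part of depth in the count of calls was not tested: the lncRNA genes had a median of 424 counts and the partners of 7941, and edgeR called 0 of either.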
